A study of Mus musculus with 16 samples.

Results

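Tetraspanins are small proteins that cross the cell membrane several times and gather integrins, adhesion molecules and enzymes into patches of membrane. Some sit at the cell surface, others in endosomes, and several are standard markers of the vesicles that cells release. In the brain they are made by neurons and glia alike, and in the mouse Cd9 and Tspan2 are known from cells of the oligodendrocyte lineage, the glia that form myelin. Here 8 tetraspanin genes were described, of 16934 genes with counts: Cd9, Cd63, Cd81, Cd82, Cd151, Tspan2, Tspan3 and Tspan7. They were chosen by family name with results of these libraries in view, among them the lower Cd151 level of loaded neurons with microglia than of loaded neurons alone. Values from that comparison, and from the average that contains it, are therefore given as a description and support nothing by themselves. Which other values bore on the choice is not known, so no other contrast is independent support either.

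The libraries were made from primary cortical neurons of C57BL/6 mouse embryos (embryonic day 15 to 16) after 14 days in culture. There were 4 groups of 4 libraries: neurons given fluorescent fibrils of α-synuclein (0.1 µM, 16 h) and then kept for 6 h with microglia, untreated neurons kept for 6 h with microglia, loaded neurons alone, and untreated neurons alone. Fibrils of α-synuclein, a neuronal protein, form in Parkinson's disease, and the series asks how microglia, the immune cells of the brain, affect neurons that carry them. The labels name no genetic change in any group, and no step that removed microglia from the co-cultures before lysis is described. Whether the 4 libraries of a group stem from different dissections or wells is not stated either, so the p-values refer to spread among libraries that could be technical. In such bulk RNA, fewer cells of a type and less RNA per cell cannot be told apart.

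Library totals were 6511516 to 13986374 counts, and levels are given in CPM, counts scaled to a common library size, after TMM scaling. The kit reads transcripts at the 3′ end, so counts depend little on gene length. How reads were counted and whether molecular identifiers were used is not given, so CPM of different genes compare only roughly. Libraries of a group varied widely (biological coefficient of variation 1.17), and 41 to 666 genes per library had no count where the other libraries averaged at least 100. Summed levels of 15 microglial genes, led by Csf1r and C1qa, were 1453 CPM in replicate 1 of the loaded and 734 CPM in replicate 1 of the untreated co-cultures. The other 6 co-cultures had 13.7 to 79.9 CPM, and neurons alone 8.0 to 41.0 CPM. Summed levels of 17 oligodendrocyte-lineage genes, led by Olig1 and Gpr17, were 4261 to 10026 CPM with microglia and 1120 to 3125 CPM alone. For 15 neuronal identity genes, led by Map2 and Syt1, they were 1179 to 3077 CPM with microglia and 1522 to 8041 CPM alone, so neuronal transcripts were present in every library. Astrocyte genes were present too, at 1513 to 10103 CPM with microglia and 3413 to 12070 CPM alone.

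Cd9 and Cd151 were the members that differed most between co-cultures and neurons alone, and in opposite directions: Cd9 averaged 249 ± 168 CPM with microglia and 51.7 ± 37.2 CPM alone, while Cd151 averaged 44.6 ± 19.6 CPM with microglia and 197 ± 165 CPM alone (SD, n = 8 each). Their promoters are printed because they belong to these 2 genes. Cd9 lies on chromosome 6 (chr6:125460266-125494791, minus strand) and Cd151 on chromosome 7 (chr7:141467392-141471473, plus strand) in GENCODE vM21 on the mouse build GRCm38. The windows run from 250 bases before to 50 after the RefSeq start in GRCm38.p6, 5′ to 3′ on the gene's strand. The Cd9 window is chr6:125494711-125495010 and the Cd151 window chr7:141467112-141467411. The other members lie at chr7:143052739-143067934 (Cd81), chr10:128900989-128912822 (Cd63), chr2:93419111-93463140 (Cd82), chr3:102734529-102801513 (Tspan2), chr9:56131725-56165477 (Tspan3) and chrX:10485158-10596605 (Tspan7). In the sequences, capitals mark the GC box, GGGCGG, searched on both strands.
Cd9: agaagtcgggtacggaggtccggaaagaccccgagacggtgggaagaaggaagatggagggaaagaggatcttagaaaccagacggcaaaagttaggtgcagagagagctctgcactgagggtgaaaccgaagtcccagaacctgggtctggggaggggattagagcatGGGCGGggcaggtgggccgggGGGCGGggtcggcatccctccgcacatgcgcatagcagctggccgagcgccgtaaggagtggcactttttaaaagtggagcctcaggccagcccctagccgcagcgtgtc
Cd151: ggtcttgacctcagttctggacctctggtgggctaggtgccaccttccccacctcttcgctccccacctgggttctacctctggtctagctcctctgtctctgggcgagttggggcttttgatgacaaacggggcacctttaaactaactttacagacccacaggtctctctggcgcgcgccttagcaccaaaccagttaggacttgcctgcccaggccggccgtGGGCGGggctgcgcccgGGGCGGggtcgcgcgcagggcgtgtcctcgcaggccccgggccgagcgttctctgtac
Both windows held 2 GC boxes; of 32851 RefSeq promoters of the same length, 19.5% hold 2 or more and 35.7% at least 1. Neither held CCAAT (37.4% of promoters) or TATAAA (13.6%), on either strand. GC content was 61.3% in Cd9 and 64.3% in Cd151, against a median of 52.7% over all promoters. A match is a description of these letters only.

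Cd9, a surface tetraspanin that binds the immunoglobulin proteins Igsf8 and Ptgfrn and is needed for sperm-egg fusion, was more abundant in 7 of the 8 co-cultures than in any library of neurons alone. It had 63.9, 625, 226 and 267 CPM in loaded neurons with microglia (replicates 1 to 4), against 81.9, 102, 17.0 and 19.7 CPM in loaded neurons alone. Untreated neurons had 249, 259, 135 and 166 CPM with microglia, against 87.5, 70.6, 13.6 and 21.3 CPM alone. The untreated groups did not overlap. The loaded groups did, because replicate 1 with microglia, 1 of the 2 libraries rich in microglial genes, was lower than 2 of the 4 loaded libraries alone. The log2 change with microglia was 2.07 ± 0.73 (SE) in untreated neurons, with adjusted p = 0.41 in edgeR's quasi-likelihood fit (Benjamini-Hochberg over 13139 genes), which does not pass. It was 2.42 ± 0.74 in loaded neurons and 2.24 ± 0.52 averaged over both, a fold of 4.74.

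Cd151, which binds the laminin receptors of the integrin family, went the other way. It had 43.1, 87.5, 47.4 and 49.9 CPM in loaded neurons with microglia, against 189, 484, 422 and 108 CPM in loaded neurons alone, and these groups did not overlap. The untreated cultures had 26.7, 42.4, 33.4 and 26.0 CPM with microglia, against 115, 115, 106 and 32.0 CPM alone. There replicate 4 of the neurons alone lay among the co-cultures and the other 3 above them all. The log2 change with microglia was -1.52 ± 0.46 in untreated neurons (edgeR adjusted p = 0.261), which does not pass over all genes. In loaded neurons it was -2.40 ± 0.47, and the average was -1.96 ± 0.33, a fold of 0.257.

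**Figure D1:**
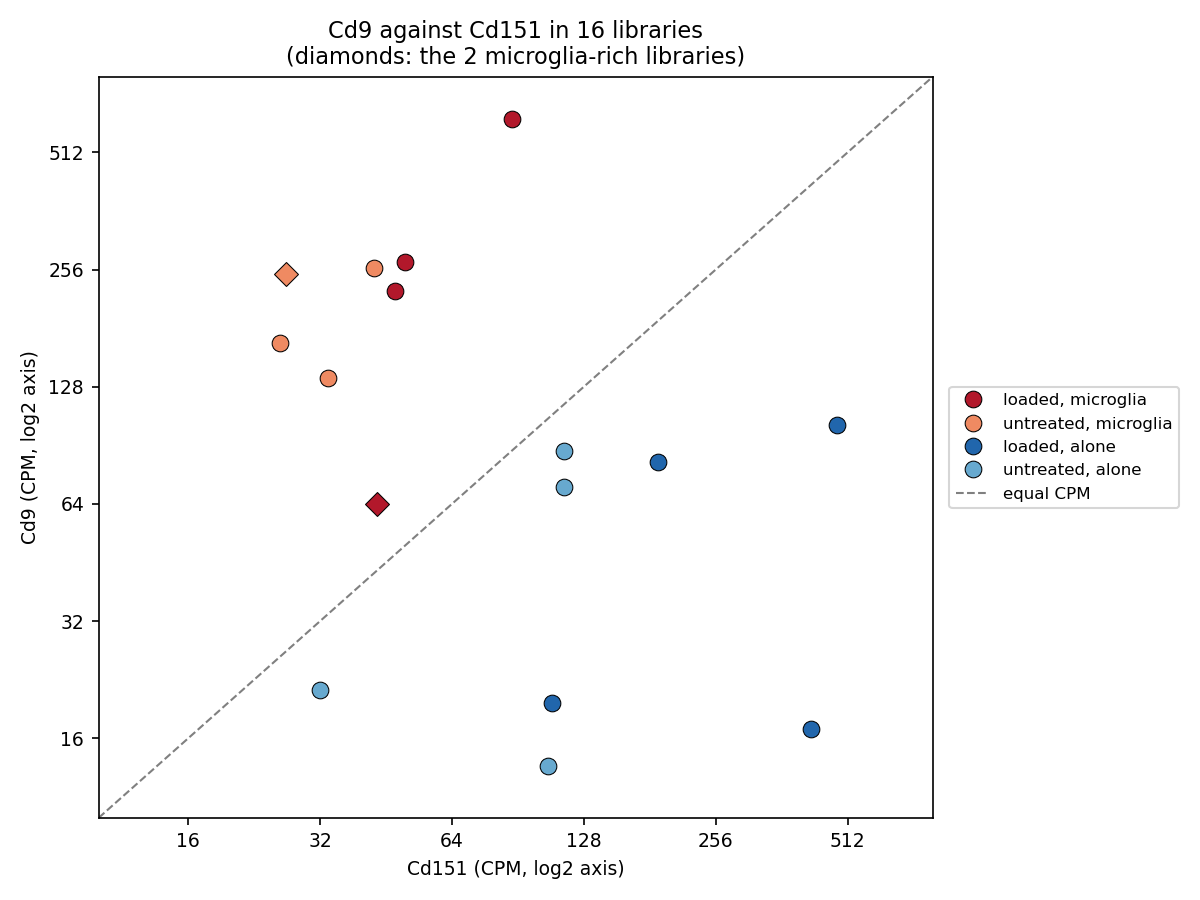
Level of Cd9 (CPM, vertical) against Cd151 (CPM, horizontal), both on log2 axes, in each of the 16 libraries; the dashed line marks equal levels and diamonds are the 2 libraries rich in microglial genes. The 8 co-cultures lie above the line and the 8 libraries of neurons alone below it.

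The ratio of Cd9 to Cd151 counts within a library does not depend on scaling, and it separated the cultures completely. Cd9 counts were 1.48, 7.14, 4.77 and 5.35 times the Cd151 counts in loaded neurons with microglia, against 0.434, 0.211, 0.0402 and 0.182 times in loaded neurons alone. In untreated neurons the ratio was 9.33, 6.10, 4.03 and 6.37 with microglia, against 0.758, 0.613, 0.128 and 0.665 alone. Cd9 thus exceeded Cd151 in 8 of 8 co-cultures and in 0 of 8 libraries of neurons alone, in the plot of Cd9 against Cd151. The ratio was looked at after the levels had been seen, so it carries no test. It pairs a member that was higher with one that was lower, and how many gene pairs separate as completely was not counted. Within groups, libraries with more Cd9 did not have less Cd151: the correlation of log2 CPM, after each group's mean was taken off, was 0.43 over 16 libraries, which share their scaling.

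Averaged over fibril state, 2 of the 8 members, Cd9 up and Cd151 down, had an adjusted p under 0.05 (adjusted p = 0.035 and 0.00253), as did 2.19% of all tested genes. DESeq2 and limma-voom called the same 2 members, and 8.4% and 5.04% of all genes. The same 2 members had an unadjusted p under 0.05, as did 16.5% of all genes, and none of the 8 had groups of 8 without overlap, as 0.601% of all genes did. Because the choice of the family used part of this contrast, nothing is read from the count. The Cd151 value stayed under the threshold in 16 of 16 refits without a single library, with adjusted p between 0.000812 and 0.00778. The Cd9 call held in 5 of 16: without replicate 1 or 3 of the loaded co-cultures, replicate 3 of the untreated co-cultures, replicate 2 of the loaded neurons alone or replicate 1 of the untreated neurons alone. Without any other library its adjusted p was 0.0503 to 0.0716, and its log2 change over the 16 refits was 1.91 to 2.50. Without the 2 libraries rich in microglial genes the changes were 2.36 for Cd9 (adjusted p = 0.0354) and -1.86 for Cd151 (adjusted p = 0.0148), while without replicate 1 of the untreated co-cultures alone, 1 of those 2, Cd9 missed the threshold (adjusted p = 0.0716). Between co-cultures and neurons alone, the higher oligodendrocyte-lineage and lower neuronal summed levels given above moved with both genes. Astrocyte sums averaged 3985 CPM with microglia and 7045 CPM alone. Single libraries did not all follow. Replicate 1 of the loaded co-cultures had the highest oligodendrocyte-lineage sum (10026 CPM) and the lowest Cd9 of the co-cultures (63.9 CPM). That library also had the lowest total (6511516 counts) and the most genes without a count where the others averaged at least 100 (666 genes). Replicate 2 of the loaded neurons alone had the lowest neuronal sum of neurons alone (1522 CPM) and the highest Cd151 (484 CPM). Its astrocyte sum was the highest of the 16 libraries (12070 CPM). The part of cell composition in these differences was not tested.

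Taken separately by fibril state, 0 of 8 members passed in untreated neurons, where 0.122% of all genes did. Unadjusted p was under 0.05 for 3 members, Cd9, Cd151 and Cd82, and for 9.1% of all genes. Of these, Cd82 had 0 counts in all 4 libraries of untreated neurons alone, so its p rests on an empty group. By DESeq2 and by limma-voom 0 members passed with microglia in untreated neurons as well, where 2.27% and 0.7% of all genes did. Cd9 was the 1 member without overlap between the untreated groups, as were 7.58% of all genes. In loaded neurons 1 member passed, Cd151 (adjusted p = 0.0388), as did 0.114% of all genes. The family was chosen with this Cd151 difference in view, so nothing is read from the counts in loaded neurons. DESeq2 called Cd9 as well there, with 3.78% of all genes, and limma-voom neither, with 0.304%. A fit with a replicate block by neighbouring library codes called Cd9 too (adjusted p = 0.041). Cd9 and Cd151 had an unadjusted p under 0.05, as did 11.7% of all genes, and Cd151 alone had no overlap, as did 6.32%. That Cd151 call held in 2 of 8 refits, without replicate 1 or 4 of the loaded neurons alone, and without any of the other 6 libraries its adjusted p was 0.0677 to 0.124, and it was 0.102 without the 2 libraries rich in microglial genes together. The microglia effect itself did not differ detectably between loaded and untreated neurons. The difference was 0.35 ± 1.00 for Cd9 and -0.88 ± 0.63 for Cd151 in the edgeR fit, both on the log2 scale, with 95% intervals of -1.60 to 2.31 and -2.12 to 0.36. By edgeR, DESeq2 or limma-voom none of the 8 members passed this interaction test, where 0%, 1.44% and 0% of all genes did, and by edgeR none had an unadjusted p under 0.05, as 4.03% did.

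**Figure D2:**
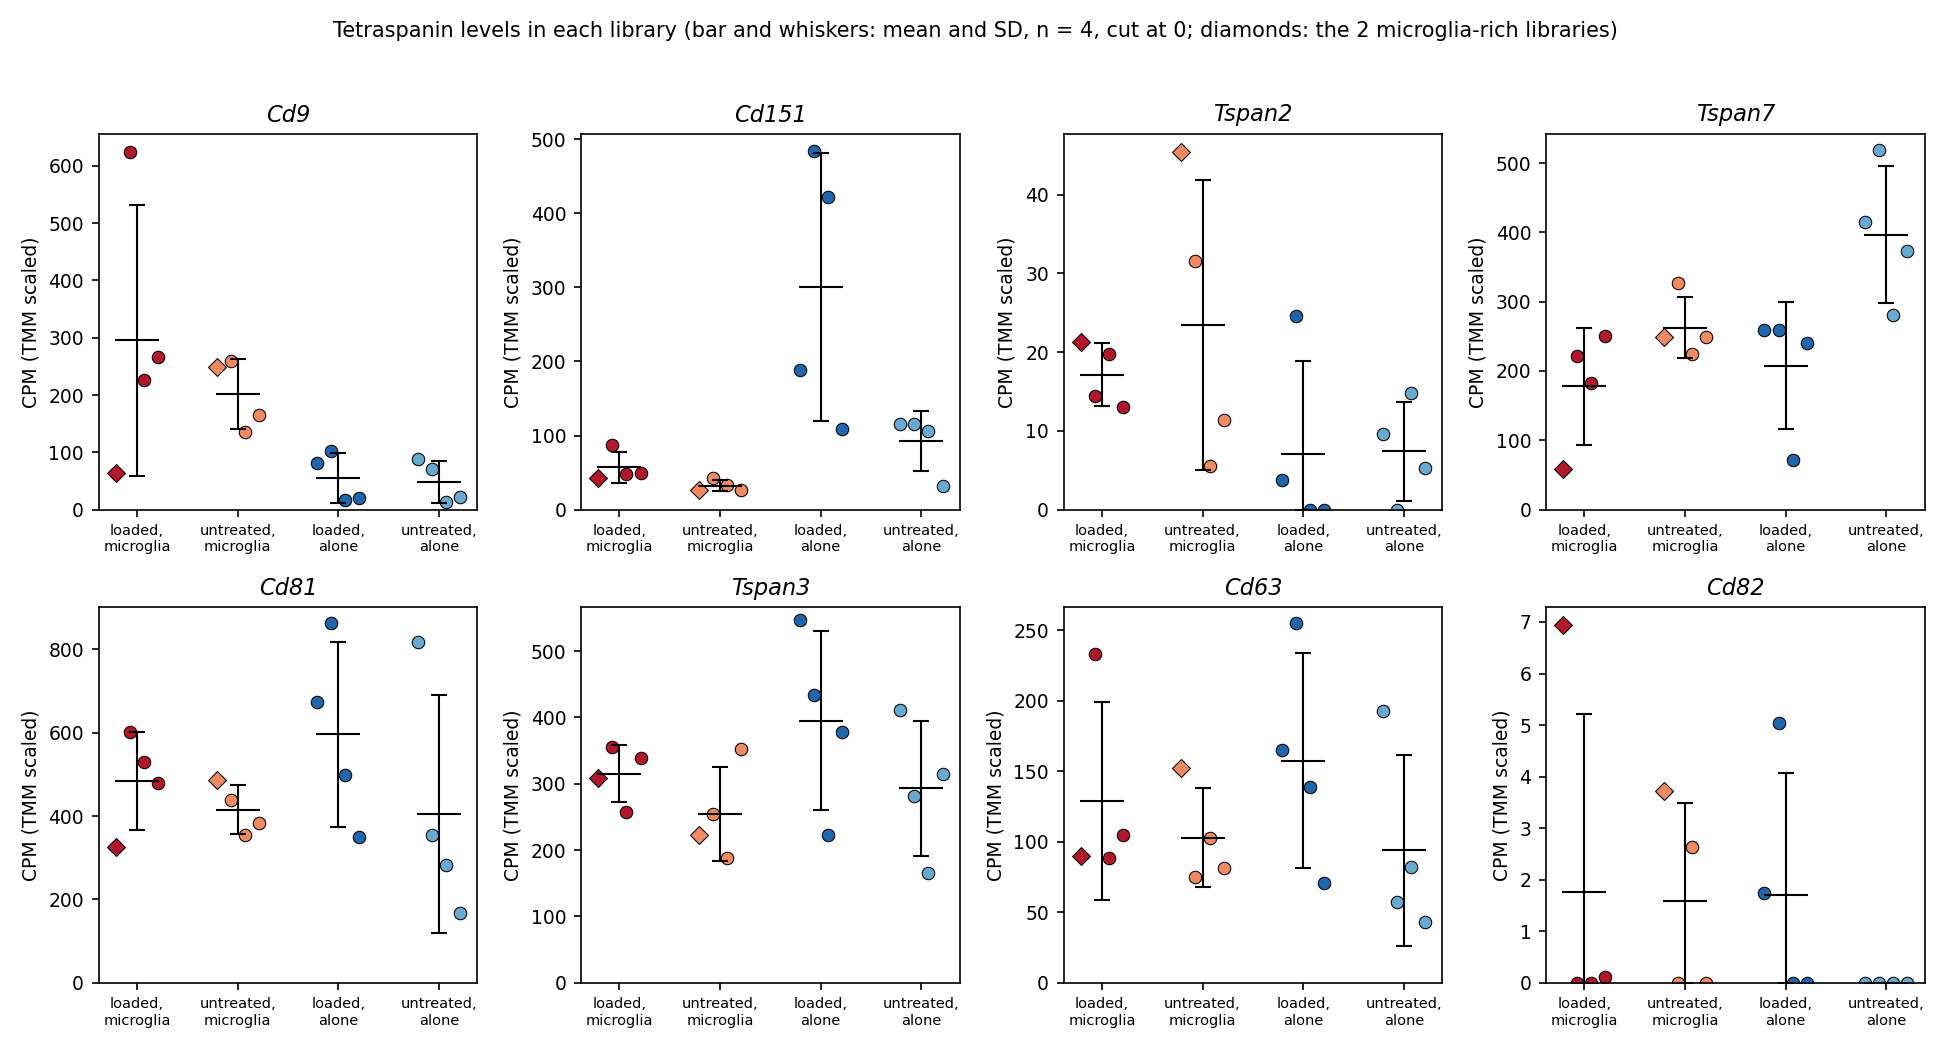
Level (CPM) of each of the 8 tetraspanins in every library by group; points are libraries, bars and whiskers the mean and SD of 4 libraries, and diamonds the 2 libraries rich in microglial genes. Cd9 is high and Cd151 low in the co-cultures, Tspan7 is highest in untreated neurons alone, and Cd82 lies under 7 CPM everywhere.

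Tspan2, a tetraspanin enriched in mouse oligodendrocytes and myelin, was measured at low levels. It had 21.3, 14.4, 19.8 and 13.1 CPM in loaded neurons with microglia, against 3.73, 24.6, 0 and 0 CPM in loaded neurons alone. Without fibrils it had 45.4, 31.6, 5.58 and 11.3 CPM with microglia, against 9.60, 0, 14.8 and 5.29 CPM alone. It was detected in 8 of 8 co-cultures and in 5 of 8 libraries of neurons alone, and the groups overlapped. Its averaged change of 1.47 ± 1.11 did not pass (edgeR adjusted p = 0.569), with a 95% interval of -0.71 to 3.65. The change was 2.73 without replicate 2 of the loaded neurons alone, 3.56 by limma-voom (adjusted p = 0.0848) and 3.25 by limma on the deposited scores, the authors' normalized values (adjusted p = 0.149), and none of these passed.

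Tspan3, known to bind the myelin protein claudin 11, differed little between groups. It had 309, 356, 257 and 339 CPM in loaded neurons with microglia, against 547, 434, 222 and 378 CPM in loaded neurons alone. Cultures without fibrils had 223, 254, 187 and 352 CPM with microglia, against 412, 282, 165 and 315 CPM alone. Both pairs of groups overlapped, and the averaged change was -0.27 ± 0.23 (edgeR adjusted p = 0.634). Its 95% interval was -0.71 to 0.18.

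Cd81 and Cd63 were abundant in every library and showed no difference with microglia beyond the spread. Cd81, a surface tetraspanin that shares the Igsf8 and Ptgfrn partners of Cd9, had 326, 602, 529.5 and 480.0 CPM in loaded neurons with microglia, against 674, 864, 499 and 350.3 CPM in loaded neurons alone. In untreated neurons it had 486, 439, 355 and 382 CPM with microglia, against 818, 354, 283 and 168 CPM alone. Cd81 spread less with microglia, 93.1 CPM as an SD over 8 libraries, than alone, 258 CPM, a difference that was not tested. Cd63 is the tetraspanin of late endosomes and lysosomes and a marker of released vesicles. It had 89.7, 234, 88.2 and 105 CPM in loaded neurons with microglia, against 165, 255, 139 and 70.5 CPM in loaded neurons alone. Untreated neurons had 152, 74.9, 103 and 81.5 CPM with microglia, against 193, 57.5, 81.9 and 43.2 CPM alone. For both genes the groups overlapped. The averaged changes were -0.13 ± 0.27 for Cd81 and -0.08 ± 0.33 for Cd63 (edgeR adjusted p = 0.902 and 0.966; 95% intervals -0.66 to 0.39 and -0.72 to 0.57), and both signs turned with library totals as the scaling, to 0.11 and 0.18. That scaling put the median of all genes at 0.18, against -0.03 with TMM. Cd63 then lay at about that median and Cd81 slightly below it, by less than its SE.

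Tspan7, a gene of the X chromosome known from human intellectual disability and from the trafficking of AMPA receptors in neurons, was highest in untreated neurons alone. It had 58.7, 221, 182 and 250.2 CPM in loaded neurons with microglia, against 249, 327, 225 and 249 CPM in untreated neurons with microglia. It had 259, 259.6, 71.4 and 241 CPM in loaded neurons alone, against 414, 519, 281 and 373 CPM in untreated neurons alone. The 2 groups of neurons alone did not overlap. The 2 co-culture groups overlapped, with replicate 1 of the loaded co-cultures far below the rest. The change with fibrils was -0.93 ± 0.40 alone (edgeR adjusted p = 0.695) and -0.56 ± 0.40 with microglia, and neither passed. With microglia against alone it was -0.22 ± 0.40 in loaded and -0.60 ± 0.40 in untreated neurons, which did not pass either.

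Cd82, known as a suppressor of metastasis in human tumours, was close to the detection limit. It had 44, 0, 0 and 1 counts in loaded neurons with microglia, against 14, 43, 0 and 0 counts in loaded neurons alone. The untreated cultures had 47, 0, 35 and 0 counts with microglia, against 0 counts in the 4 libraries alone. A count of 0 allows up to 0.22 to 0.385 CPM in those 4 libraries (3 counts each, counting error only). The highest level, 6.94 CPM, was in replicate 1 of the loaded co-cultures. With 10 of 16 libraries at 0, no fold change is given for it.

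No member passed the test over all genes with fibril loading, by edgeR. Cd151 averaged more in both loaded groups than in their untreated counterparts, with no call. In neurons alone Cd151 averaged 301 ± 181 CPM loaded and 92.2 ± 40.3 CPM untreated (SD, n = 4 each), a log2 change of 1.71 ± 0.46 (edgeR adjusted p = 0.532). In co-cultures it averaged 57.0 ± 20.6 CPM loaded and 32.1 ± 7.64 CPM untreated (SD, n = 4 each), a log2 change of 0.83 ± 0.45, which did not pass. In co-cultures the groups did not overlap after TMM scaling, but by a narrow gap: 43.1 CPM in the lowest loaded and 42.4 CPM in the highest untreated library. In neurons alone they overlapped by 1 loaded library. In neurons alone 0 of 8 members had an edgeR adjusted p under 0.05, as did 0% of all genes. There Cd151, Tspan7 and Cd82 had an unadjusted p under 0.05, as did 6.92% of all genes. The Cd82 value again rests on an empty group, with 0 counts in the 4 untreated libraries alone. Tspan7 alone had no overlap, as did 4.18%, and DESeq2 called Cd151 (adjusted p = 0.0321) and 1.33% of all genes. In co-cultures 0 members passed by edgeR, DESeq2 or limma-voom, where 0%, 0.998% and 0% of all genes did, and 0 had an unadjusted p under 0.05, as did 3.68% of all genes, while Cd151 alone had no overlap, as did 1.94%. Averaged over both cultures, 0 passed by edgeR, Cd151 (1.27 ± 0.32) and Tspan7 (-0.75 ± 0.28) had an unadjusted p under 0.05, as did 6.62% of all genes, and DESeq2 called Cd151 (adjusted p = 0.0172) and 1.97% of all genes. These contrasts share libraries with the microglia contrasts.

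**Figure D3:**
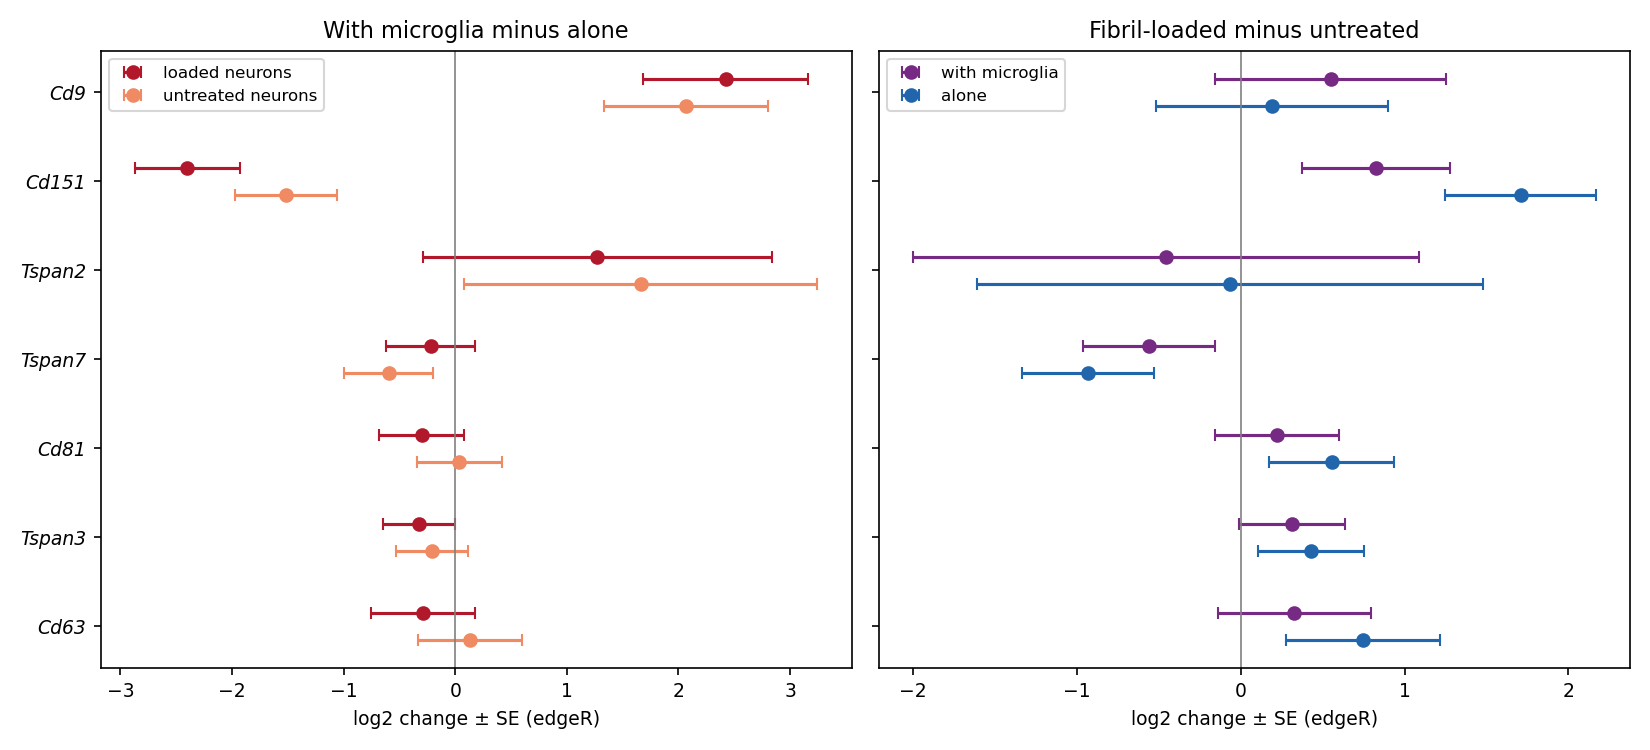
Log2 change with its SE from the edgeR fit for 7 members, with microglia minus alone on the left and fibril-loaded minus untreated on the right, each in the 2 states of the other factor. Cd9 and Cd151 lie on opposite sides of 0 on the left in both loaded and untreated neurons, and Cd151 is the highest member on the right.

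As a family, 29 tetraspanin genes had counts, and the 8 members and 14 of the other 21 were tested. The summed level of the family was 1798 ± 399 CPM with microglia and 2191 ± 480 CPM alone (SD, n = 8 each), and the 2 ranges overlapped. Cd81 was the most abundant by its median share, 24.1% of the family with microglia and 22% alone. Cd9 made up 5.44% to 24.8% of the family with microglia and 0.809% to 3.42% alone, with no overlap. The family sum contains Cd9 itself, and Cd9 CPM did overlap, from 63.9 CPM upward with microglia and up to 102 CPM alone. These shares carry no test, and how many genes separate in this way was not counted. Cd151 made up 1.39% to 3.67% with microglia and 1.85% to 22.1% alone. Tspan3, by contrast, had a median share of 14.2% with microglia and 14.7% alone.

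**Figure D4:**
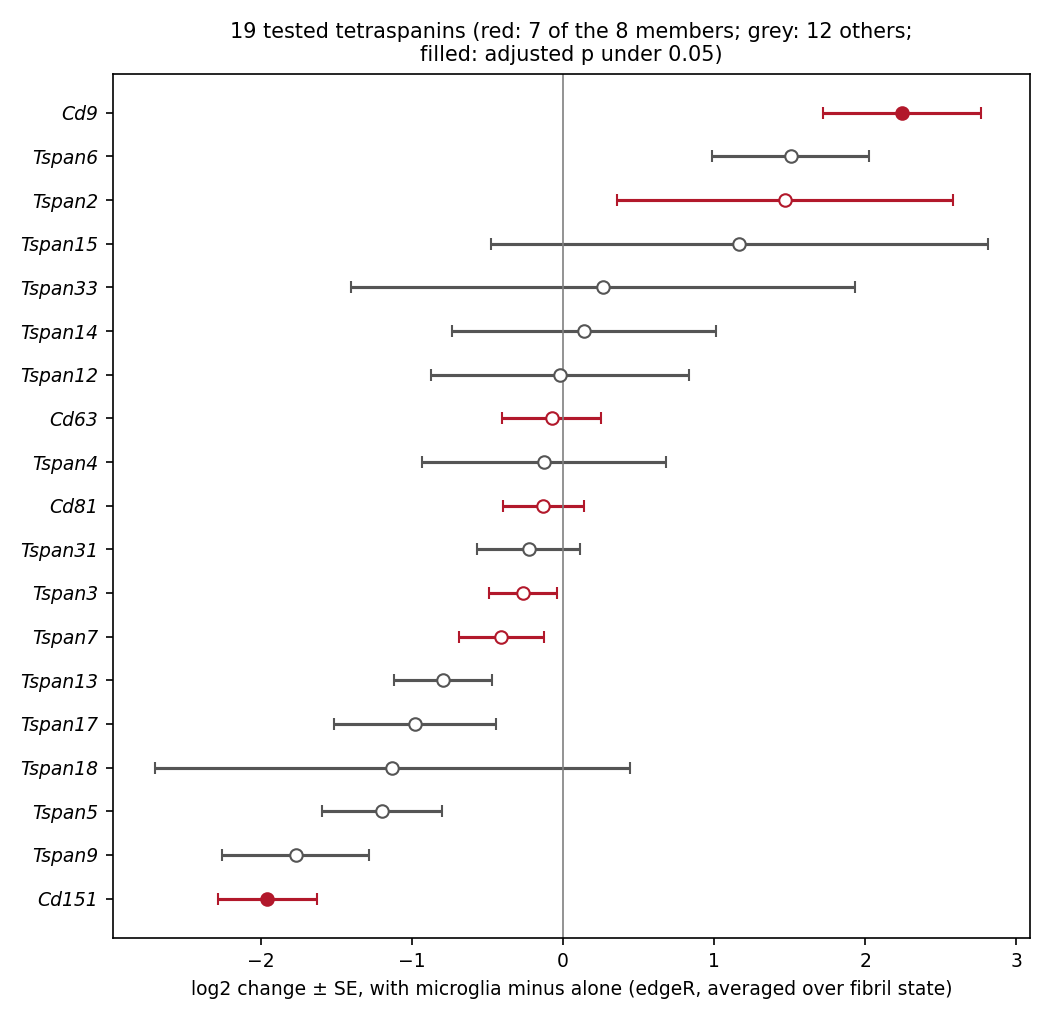
Log2 change with its SE, with microglia minus alone and averaged over fibril state (edgeR), for the 19 tested tetraspanins with counts in every group, members in red and others in grey; filled points have an adjusted p under 0.05. Cd9 (2.24) and Cd151 (-1.96) lie at the 2 ends and are the filled points.

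Of the other tetraspanins, 0 of 14 had an adjusted p under 0.05 with microglia, averaged over fibril state, by edgeR. At an unadjusted p under 0.05, which 16.5% of all genes had, 1 was higher and 4 lower. DESeq2 called 4 (Rom1, Tspan11, Tspan5 and Tspan9), against 8.4% of all genes, and limma-voom 2 (Tspan5 and Tspan9), against 5.04%. Rom1 and Tspan11 had 0 counts in all 4 loaded co-cultures, so those 2 calls rest on an empty group. Rom1 was also among the 4 lower genes above. The 12 with counts in every group had a median change of -0.18, against -0.03 over all genes. Tspan9 averaged 29.3 ± 26.9 CPM with microglia and 98.3 ± 42.9 CPM alone (SD, n = 8 each), a change of -1.77 ± 0.49 (edgeR adjusted p = 0.059). It passed without replicate 1 or 4 of the untreated co-cultures (adjusted p = 0.0394 and 0.0122), and by DESeq2 and limma-voom (adjusted p = 0.0104 and 0.0119). Tspan5, which carries the protease Adam10 through the cell, averaged 69.6 ± 40.2 CPM with microglia and 167 ± 72.2 CPM alone (-1.20 ± 0.40, edgeR adjusted p = 0.118). It passed by DESeq2 (adjusted p = 0.0371), by limma-voom (0.0384) and by limma on the deposited scores (0.0485). Tspan6 averaged 59.8 ± 34.8 CPM with microglia and 21.2 ± 16.2 CPM alone (1.51 ± 0.52, edgeR adjusted p = 0.13), and passed without replicate 1 of the untreated neurons alone (adjusted p = 0.0173). Rom1, known from photoreceptors, reached 2.40 CPM with microglia and 21.3 CPM alone, with 8 of 16 libraries at 0. The leukocyte tetraspanins Cd37 and Cd53, named after their values had been seen, stood out for where they were found. Cd37 had 18.0 CPM in replicate 1 of the loaded co-cultures and 0 in the other 15 libraries, and Cd53 had 39.7 CPM in replicate 1 of the untreated co-cultures and at most 0.229 CPM elsewhere. These are the 2 libraries rich in microglial genes.

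Among 13 tested partners of tetraspanins, Bsg alone had an edgeR adjusted p under 0.05 with microglia, averaged over fibril state. Of all genes, 2.19% did. Bsg encodes basigin, a surface glycoprotein that brings lactate transporters to the membrane. It had 145, 222, 203 and 97.7 CPM in loaded neurons with microglia, against 397, 289, 358 and 351 CPM in loaded neurons alone. Without fibrils it had 260.0, 228, 149 and 104 CPM with microglia, against 467, 599.6, 324 and 227 CPM alone. The loaded groups did not overlap, as for 6.32% of all genes, and the untreated ones did. The averaged change was -1.10 ± 0.25 (edgeR adjusted p = 0.0203), and it missed the threshold when scaled by library totals (adjusted p = 0.0509) and without replicate 2 of the untreated neurons alone (adjusted p = 0.062). DESeq2 and limma-voom called Mmp14, a membrane protease, as well, against 8.4% and 5.04% of all genes. Mmp14 averaged 45.8 ± 35.0 CPM with microglia and 158 ± 137 CPM alone (SD, n = 8 each; -1.69 ± 0.49, edgeR adjusted p = 0.0784). The 13 partners had a median change of -0.73, against -0.03 over all genes, with 5 higher and 8 lower. Igsf8, the partner of Cd9 and Cd81, averaged 182 ± 52.3 CPM with microglia and 169 ± 43.6 CPM alone (SD, n = 8 each), a change of 0.10 ± 0.23 (edgeR adjusted p = 0.916).

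Of 14 tested genes that form released vesicles, 0 passed with microglia, averaged over fibril state, by edgeR, DESeq2 or limma-voom, and 4 had an unadjusted p under 0.05 in edgeR, as did 16.5% of all genes. Their median change was -0.11, with 4 higher and 10 lower. Smpd3, a sphingomyelinase that helps vesicles bud, averaged 86.0 ± 49.2 CPM with microglia and 183 ± 110.5 CPM alone (SD, n = 8 each; -1.12 ± 0.42, edgeR adjusted p = 0.18). The membrane scaffold proteins Flot1 and Flot2 had changes of -1.16 ± 0.46 and -0.76 ± 0.33, and Stam, which sorts cargo into endosomes, of 0.63 ± 0.30 (edgeR adjusted p = 0.202, 0.247 and 0.293).

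The genes whose levels ran most like each member were found by Pearson's correlation of log2 CPM over the 16 libraries, among 9174 genes. The libraries share groups and scaling, so these values describe likeness and carry no test. Cd9 was most like H3f3a (r = 0.94), a histone gene, then Prr18 (0.89) and Jam3 (0.89), an adhesion molecule of cell junctions, and these stayed at 0.87, 0.78 and 0.81 within groups. Cd151 was most like Pdlim4 (0.90), Uqcrh (0.89), a subunit of respiratory complex III, and Slc35c2 (0.86), which fell to 0.75, 0.62 and 0.77 within groups. Tspan7 was most like Ctnnd1 (0.95), Krt10 (0.94) and Pex13 (0.93), the last weaker by rank (Spearman's rho = 0.70). Cd63 and Cd81 each had Kif5b, a motor of axonal transport, among their nearest genes (0.85 for both), and were like one another (0.87, and 0.84 within groups). Tspan3 was most like H2bc4 (0.91) and Tspan2 like Rfx5 (0.90), a gene that matched less well by rank (Spearman's rho = 0.58). Cd81 was also close to Vim (0.86), an intermediate filament of glia.

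Reads of processed pseudogenes named Cd9-ps and Cd63-ps in the annotation, which have no row of their own, could have been counted with Cd9 or Cd63, so both values are uncertain to that extent. No gene that overlaps a member covers its 3′ end, where these reads lie.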

How the data were processed

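For 16 libraries the authors deposited unnormalized counts by gene symbol and a second table of scores, their normalized values rounded to whole numbers; 99.9875% of these scores differed by no more than 0.6 from the raw count multiplied by one constant for the library. Libraries were made with a 3′ mRNA kit, per the labels' protocols. The submitters' processing notes name STAR, Partek and DESeq2 and the build mm10, without versions. How reads were counted, with which annotation and strand setting, and whether molecular identifiers were used, is not given in the sources used here, and intervals from counts cover counting error only.

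Groups came from the treatment label. Replicate numbers follow accession order within a group and only name libraries. The filterByExpr filter (minimum count 10, minimum total 15) left 13139 of 16934 genes, with all 8 members among them, which were fitted in R 4.3.3 with edgeR 4.0.16 in one robust quasi-likelihood model over the 16 libraries (TMM scaling, a mean per group). Calls were made per contrast at an adjusted p under 0.05 (Benjamini-Hochberg). The averages over fibril state and over culture were first added by an earlier account of these data, after the separate contrasts. Alternatives were library totals as the scaling, DESeq2 1.42.0, limma-voom (limma 3.58.1), limma on log2 of the deposited scores plus 1, no filter, a replicate block by runs of library codes, the groups of a contrast alone, and leaving out the 2 libraries rich in microglial genes or each library in turn. DESeq2 gave an adjusted p for 13023 genes, over which its shares were taken. Each test was tried on simulated data. Likeness used log2 CPM (prior count 2) of genes with a mean above 2, named the nearest 3 per member and skipped predicted genes. Tables were joined in Python 3.11.15 (pandas 2.3.3) and plotted with matplotlib 3.10.9.

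The members, the gene lists and the rule for naming genes were chosen with earlier results of these data known. Of each list, genes called in a contrast were named, and otherwise the 4 with the smallest unadjusted p; all 8 members were named. Igsf8, Mmp14, Tspan11, Cd37 and Cd53 were added after their values were seen. All 8 members matched a RefSeq promoter by symbol.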

Additional observations from a re-analysis of the deposited data

Results flagged for a closer look

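In 6 of 31 groups of 4 libraries, 1 library's level of a member stood apart from the other 3. The gap exceeded Dixon's critical value for 4 values at the 95% level. Chance flags about 1 group in 20 only where values spread normally, and levels here varied widely and included zeros. The share over all genes was not counted, so nothing is read from the number flagged. Cd63 had 234 CPM in replicate 2 of loaded neurons with microglia, against 88.2 to 105 CPM in the other 3. In the same library Cd151 had 87.5 CPM, against 43.1 to 49.9 CPM. Cd82 had 6.94 CPM in replicate 1 of loaded neurons with microglia, a library rich in microglial genes, against 0 to 0.114 CPM. Cd151 had 32.0 CPM in replicate 4 of untreated neurons alone, against 106 to 115 CPM. Tspan2 had 24.6 CPM in replicate 2 of loaded neurons alone, against 0 to 3.73 CPM. Tspan7 had 71.4 CPM in replicate 3 of loaded neurons alone, against 241 to 260 CPM. The causes were not tested.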

How the results depend on the processing

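Cd151 averaged over fibril state was called under every alternative run, and Cd9 under all but no filter on low counts and 11 of the 16 fits that leave out a library. These fits reuse libraries seen when the family was chosen, so they show dependence on processing and add no support. The number of members called for microglia, averaged, was 2, and 1 with no filter, where Cd9 missed (adjusted p = 0.0596, against 0.000181 by DESeq2, the lowest); leaving out a library gave 1 to 2. In loaded neurons it was 1, and 2 by DESeq2, 0 by limma-voom and by limma on the authors' normalized values, 0 without the 2 libraries rich in microglial genes (a value from fewer samples), 0 from the groups of the contrast alone, and 0 to 1 leaving out a library. For fibrils, averaged and in neurons alone, it was 0, and 1 by DESeq2.

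With a replicate block by runs of library codes the number called in loaded neurons was 2, Cd151 and Cd9, and Cd63's averaged change was 0.030. Libraries of one run deviated together weakly (24 pairs, r from -0.11 to 0.22, 4 over 0.1, against 4 of 72 pairs from different runs), and 9 of 16 libraries matched their own run best. That is a hint of pairing from the data. The labels do not say what the codes mark, so the fit without the block was kept, and it ignores any such pairing. In untreated neurons the block lowered the edgeR adjusted p of Cd9 from 0.41 to 0.079 and that of Cd151 from 0.261 to 0.135, and neither passed.

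Small changes turned sign, none of them called. Averaged over fibril state, Cd63 was 0.18 and Cd81 0.11 with library totals, 0.11 and 0.054 by limma-voom, and 0.021 and 0.0029 by limma on the normalized values. With library totals Tspan3 in untreated neurons was 0.010 and Tspan7 in loaded neurons 0.028. That scaling also moved the split of called genes, averaged, to 339 up and 83 down, against 160 up and 128 down with TMM. Without the 2 libraries rich in microglial genes Cd63 and Cd81 in untreated neurons were -0.11 and -0.037, and Tspan7 in loaded neurons 0.075. Tspan2 with fibrils in co-culture was 0.039 by limma-voom. The cause was not tested.

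Leaving out each library gave these ranges. For microglia, averaged: Cd63 -0.30 to 0.24 and Cd81 -0.25 to 0.17. In loaded neurons: Cd63 -0.74 to 0.052 and Tspan7 -0.50 to 0.075. In untreated neurons: Cd63 -0.12 to 0.76, Cd81 -0.21 to 0.63 and Tspan3 -0.41 to 0.0015. For fibrils in neurons alone: Cd9 -0.27 to 0.65 and Tspan2 -2.55 to 0.50. With microglia: Cd9 -0.12 to 0.87, Cd63 -0.13 to 0.58 and Tspan2 -0.78 to 0.084. Averaged: Tspan2 -1.51 to 0.020. For the interaction: Cd9 -0.31 to 0.83. Cd82 and Tspan2 had 184 and 2125 counts over 16 libraries, and the 2 largest SEs of the 8 for microglia, averaged; whether depth accounts for their zeros was not tested.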
